A study of Mus musculus with 8 samples.

Results

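The genes described here are 40 regulators and components of the cell division cycle, chosen by gene symbol, and all 40 were found among the 25230 genes of the count table. They comprise 12 genes that control G1 and entry into S phase, 10 genes of DNA replication and nucleotide supply, 14 genes of G2 and mitosis, and 4 genes of the centromere and kinetochore. They were measured by strand-specific mRNA sequencing in intraepithelial lymphocytes (IELs), T cells lodged within the epithelium of the gut, from 8 C57BL/6J mice. Every mouse received anti-CD3 (35 µg), an activating antibody to part of the T cell receptor; 4 of them also received PBS (the PBS group) and 4 received exendin-4, an agonist of the receptor for glucagon-like peptide 1, at 10 nmol/kg (the Ex4 group). At 3 hours the cells were purified by Percoll density and by sorting on CD45, which all leukocytes carry. No group without the CD3 antibody is among these samples, so the values compare exendin-4 with PBS in activated cells and do not measure activation itself. Libraries are named by group and replicate, from PBS 1 to Ex4 4, and neither age nor sex of the mice is given here.

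Cells leave G1 when D-type cyclins with Cdk4 or Cdk6, and then cyclin E with Cdk2, phosphorylate the retinoblastoma protein and release E2F factors, which switch on replication genes. In G2 and mitosis a later wave of genes, including the mitotic cyclins, the Aurora and Polo kinases and the spindle checkpoint, is expressed and then shut off. CENP-A, the product of Cenpa, is the variant of histone H3 that marks centromeres; its chaperone HJURP deposits it, and the kinetochore is built on it. In T cells the replication and mitosis genes are low at rest and are induced when the antigen receptor drives division, whereas Cdkn1b is a gene of resting cells.

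The libraries held 13386889 to 31843413 counts, and 16639 to 19335 genes had at least 1 count, with PBS 2 and Ex4 3 at the low end of that range (16639 and 17116, against 17934 or more in the others). Levels are in CPM, counts scaled to each library's depth with TMM factors, and values after ± are SDs over 4 libraries. Every member passed the filter on low counts, and the lowest count of any member in any library was 56, for Bub1 in Ex4 4, the library with the fewest counts. T cell and IEL genes marked the sorted cells, and all 15 genes of that list were detected. The granzyme genes Gzma and Gzmb held most of their sum, with 44215 to 69887 CPM in PBS and 62104 to 74880.3 CPM in Ex4. The other 13 genes summed to 6441 to 7703 CPM and 6758 to 7650 CPM. Of the 15 genes, 12 had a log2 fold change above 0 and 3 below, with a median of 0.15 against 0.02 for all genes tested. By edgeR 2 of them had an unadjusted p under 0.05 (13.3%, against 7.61% of all genes tested). These were Cd2, with a higher mean in Ex4 (0.82, SE 0.33, adjusted p = 0.586), and Cd8a. Cd8a, a coreceptor gene of most IELs, was lower in Ex4 without overlap, at 1600.1 ± 322 and 1060.1 ± 116 CPM (log2 fold change -0.59, SE 0.16, edgeR adjusted p = 0.351), and was the only one of the 76 marker genes that DESeq2 called (adjusted p = 0.0406). The part of this in the results below was not tested.

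None of the 40 genes passed the comparison of exendin-4 with PBS by edgeR's quasi-likelihood F test, with p adjusted by Benjamini-Hochberg over 14691 genes and a threshold of 0.05, where 0.0136% of all genes tested did. At an unadjusted p under 0.05 there were 2 members, Cenpa with a higher mean in Ex4 and Cdk4 with a lower one, or 5% of the 40 against 7.61% of all genes tested. The same genes were the 2 members whose groups did not overlap, where 4.95% of all genes tested did not (2.29% with Ex4 higher, 2.66% with Ex4 lower). The median log2 fold change of the 40 genes was 0.02, as was that of all genes tested. DESeq2 called 1 member, Cenpa, as higher, where it called 0.606% of the genes it tested (0.347% as higher), and limma-voom called 0. For 31 of the 40 genes the 95% interval of the fold change lay within a 2-fold change in either direction. In bulk RNA, a change in the share of dividing cells and a change in RNA per cell cannot be told apart.

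**Figure D1:**
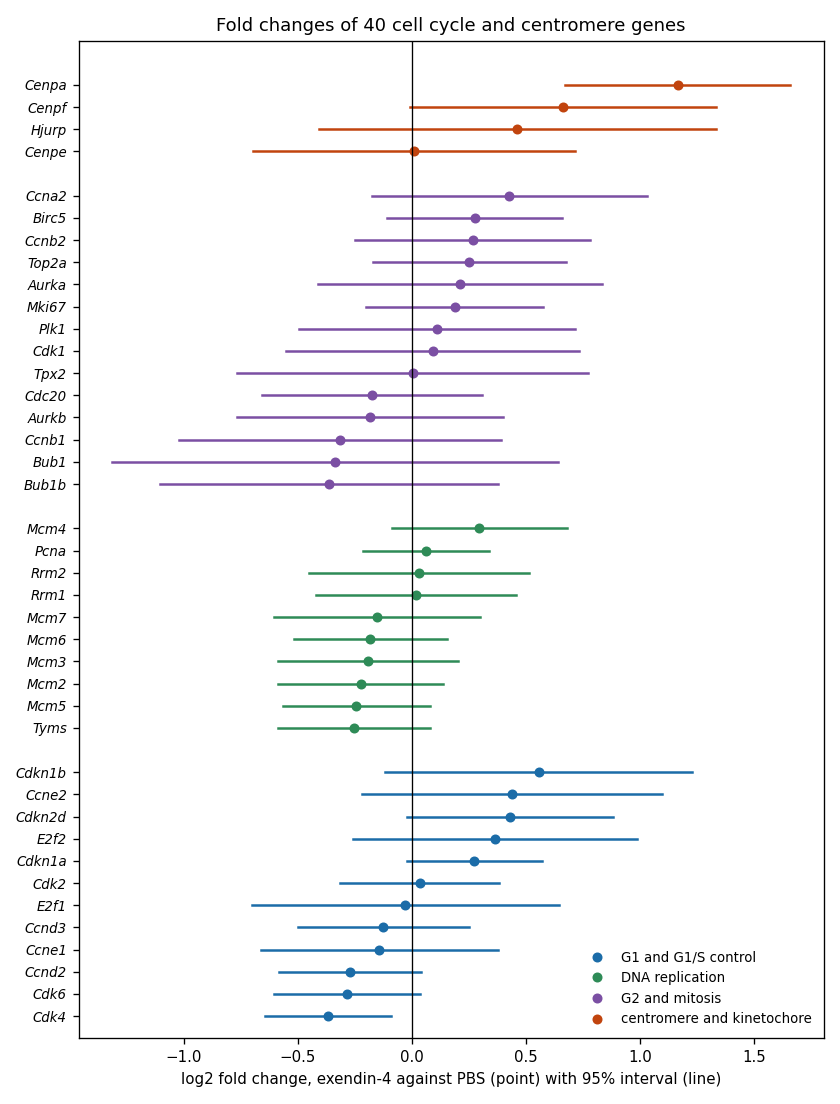
Log2 fold change of each of the 40 genes, exendin-4 against PBS (horizontal axis, points), with its 95% interval (lines), grouped by role. Cenpa, at 1.16, lies farthest from 0; its interval and that of Cdk4, at -0.37, are the ones that leave out 0.

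Cenpa had the largest difference among the members. It stood at 36.0, 92.5, 57.4 and 71.0 CPM in PBS 1 to 4 and at 131, 128, 157 and 159.9 CPM in Ex4 1 to 4. Every Ex4 library was above every PBS library, and the Ex4 libraries lay closer together than the PBS libraries, among which PBS 1 was the lowest. The means were 64.2 ± 23.7 CPM and 144 ± 16.7 CPM, a log2 fold change of 1.16 (SE 0.23, 95% interval 0.67 to 1.66), or 2.24-fold. The counts behind these values were 748 to 2229 in PBS and 2260 to 4540 in Ex4. By unadjusted p (0.000205) the gene ranked 11 of 14691, and its adjusted p was 0.253 in the edgeR test.

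The call of Cenpa depended on the test and on one library. DESeq2 gave an adjusted p of 0.00158 and edgeR without PBS 2 gave 0.0155, and the adjusted p ran from 0.00158 to 0.869 over 19 alternatives. The log2 fold change itself stayed between 0.96 (without PBS 1) and 1.38 (without PBS 2) in those alternatives. PBS 1, where Cenpa was lowest, also had the lowest sum of Gzma and Gzmb, 44215 CPM against 61088 CPM or more in the other libraries. The other 13 T cell and IEL genes summed to 7055 CPM there, within the range of the other PBS libraries. That sum holds Cd8a, at 2074 CPM. Cd8a and Cd160 were highest of all libraries in PBS 1. Cd3d, Cd3g, Cd247, Cd8b1, Cd2, Cd5, Lat and Zap70 were lowest of all libraries there, and Cd3e, Itgae and Ptprc were neither. Cd247 was at 188 CPM in PBS 1, against 288 CPM or more in the other libraries. The part of these levels in the result was not tested. Cenpa lies on chromosome 5 from 30666877 to 30674837 (GRCm38, also called mm10), the value covers the whole gene, and none of its exon bases are shared with another gene of the GENCODE annotation.

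**Figure D2:**
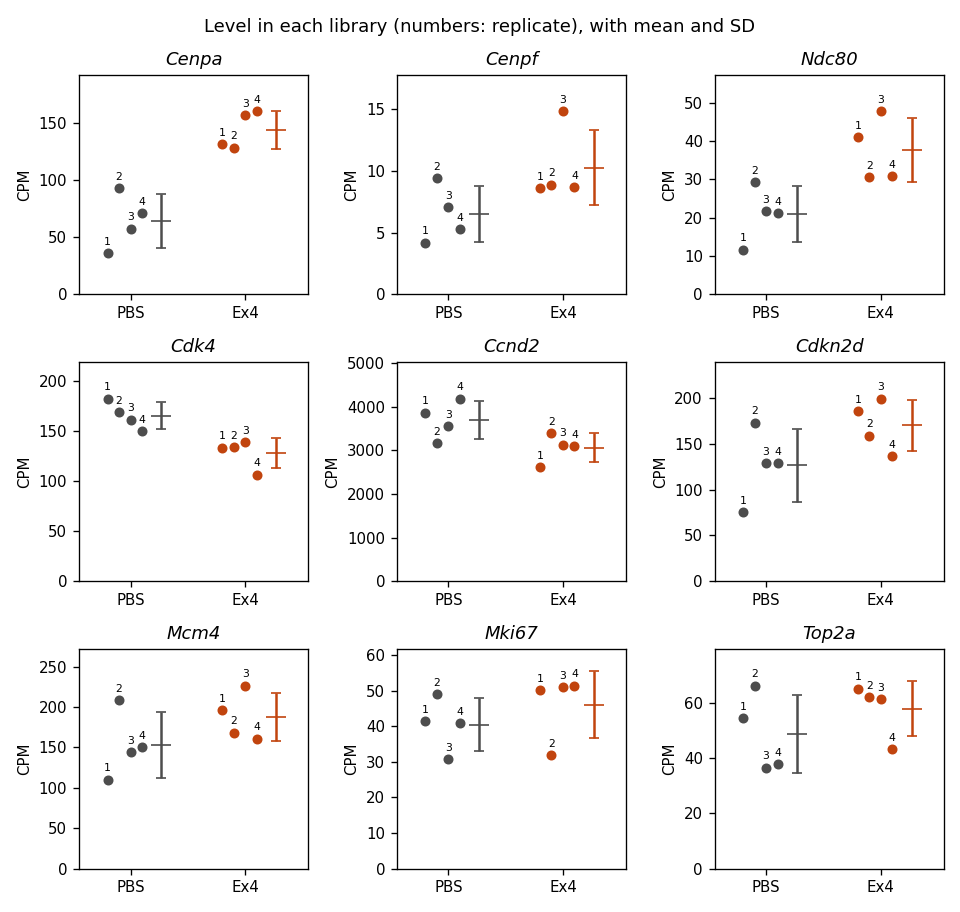
CPM (vertical axes, each from 0) of 8 members and of Ndc80, a kinetochore gene outside the member set, in each library; numbers mark the replicate, and the bar beside each group is the mean with its SD. For Cenpa, Ndc80 and Cdk4 the groups do not overlap, and for the other 6 genes they do.

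The start regions of the centromere genes show what Cenpa shares with other genes of mitosis, and are given with that of the mitotic cyclin gene Ccnb2 for comparison. Each runs from 120 bases before to 30 bases after the start in RefSeq (GRCm38.p6), on the coding strand. The start used for these windows need not be the outer end of the gene, and for Cenpa, Cenpf and Hjurp it is not. Capitals mark the cell cycle homology region (CHR), TTTGAA or TTCGAA, which recruits the complex that times mitotic genes, and the CCAAT box, CCAAT, a site of the factor NF-Y. Both were searched on both strands, so a CCAAT box can read ATTGG, and the 2 motifs do not overlap in these sequences.
Cenpa, chr5:30666766-30666915, plus strand: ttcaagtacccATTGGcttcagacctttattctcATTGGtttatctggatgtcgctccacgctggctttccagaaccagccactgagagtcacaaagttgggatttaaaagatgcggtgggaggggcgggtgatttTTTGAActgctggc
Cenpf, chr1:189688057-189688206, minus strand: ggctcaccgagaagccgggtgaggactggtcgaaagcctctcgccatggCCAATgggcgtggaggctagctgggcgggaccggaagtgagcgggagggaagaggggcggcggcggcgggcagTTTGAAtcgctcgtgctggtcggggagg
Hjurp, chr1:88277550-88277699, minus strand: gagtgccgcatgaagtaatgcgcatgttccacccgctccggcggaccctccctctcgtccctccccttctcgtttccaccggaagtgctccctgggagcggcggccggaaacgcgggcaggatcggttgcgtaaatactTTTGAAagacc
Cenpe, chr3:135212443-135212592, plus strand: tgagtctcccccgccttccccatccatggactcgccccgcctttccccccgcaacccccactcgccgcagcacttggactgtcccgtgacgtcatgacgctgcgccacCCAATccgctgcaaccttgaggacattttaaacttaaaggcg
Ccnb2, chr9:70421525-70421674, minus strand: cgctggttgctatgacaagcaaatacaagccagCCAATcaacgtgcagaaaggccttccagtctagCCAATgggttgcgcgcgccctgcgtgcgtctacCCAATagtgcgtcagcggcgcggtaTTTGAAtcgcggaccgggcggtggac

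In Cenpa the CHR letters began 17 bases after the start, with CCAAT boxes at 109 and 86 bases before it by their first base. Ccnb2, Cenpf and Hjurp carried the CHR letters 5, 3 and 20 bases after their starts. The CCAAT box of Hjurp, 182 bases before its start, lies outside the printed stretch, and Cenpe had no CHR match in its window. Over the full windows of 300 bases (250 before to 50 after the start), which RefSeq gave for 34 of the 40 genes, both motifs stood together in 9 of 11 G2 and mitosis genes and 3 of 4 centromere genes, against 2 of 9 replication genes, 1 of 10 G1 genes and 8.61% of all 27025 genes with a window. The E2F motif (TTTCCCGC, TTTCGCGC, TTTGCCGC or TTTGGCGC, both strands) stood in 4 of the 9 replication genes, Mcm3, Mcm5, Mcm6 and Mcm7, and in 2.60% of all genes. It also stood in 2 of 10 G1 genes, Cdk2 and E2f2, in 1 of 11 G2 and mitosis genes, Cdk1, and in 0 of 4 centromere genes. TGACGTCA, the palindromic cAMP response element, was found in Cenpe and Mcm5 among the members and in 2.03% of all genes. It was not found in the Cenpa window, which says only that these letters are absent there. Ccnd2, Ccne2, Mcm4, Ccna2, Aurkb and Tpx2 had no entry. A match is a description of the letters, and binding was not measured.

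Cenpa was set against the mitotic genes within each library. Its log2 CPM minus the mean log2 CPM of the 14 G2 and mitosis genes was 1.18, 2.11, 2.25 and 2.69 in PBS 1 to 4 and 2.91, 3.35, 3.05 and 3.65 in Ex4 1 to 4. All Ex4 libraries were above all PBS libraries on this measure. The group means were 2.06 ± 0.63 and 3.24 ± 0.33, a difference of 1.19 on the log2 scale, and it was smallest, 0.89, without PBS 1 when each library was left out in turn. Taken gene by gene, the ratio of Cenpa to the other member did not overlap between groups for 27 of 39 members (69.2%), against 59.3% of the 14690 other genes tested, so that most ratios to Cenpa separated the groups whatever the gene. The 27 held all 10 replication genes, 9 of 12 G1 genes, 8 of 14 G2 and mitosis genes and 0 of the 3 other centromere genes. These ratios all contain Cenpa, so they are not independent of each other, and they are given without a test and show nothing particular to the members.

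**Figure D3:**
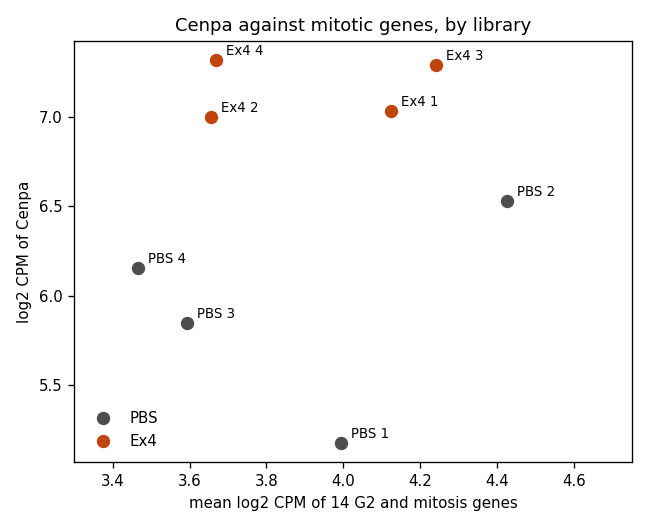
Log2 CPM of Cenpa (vertical axis) against the mean log2 CPM of the 14 G2 and mitosis genes (horizontal axis), 1 point per library. The 4 Ex4 libraries lie above the 4 PBS libraries in Cenpa, whose highest value is 6.53, while along the horizontal axis the groups overlap.

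The 3 other centromere and kinetochore members were low and did not pass the test. Cenpf, which encodes a large kinetochore protein of late G2, was at 4.19, 9.42, 7.05 and 5.29 CPM in PBS 1 to 4 and at 8.60, 8.88, 14.8 and 8.70 CPM in Ex4 1 to 4. Ex4 3 held the highest value and the groups overlapped through PBS 2. The log2 fold change of Cenpf was 0.66 (SE 0.31, 95% interval -0.01 to 1.33, edgeR adjusted p = 0.658), and 0.41 without Ex4 3. Hjurp, the chaperone gene of CENP-A, was at 6.06, 2.95, 7.69 and 6.24 CPM in PBS and 6.07, 6.36, 4.31 and 15.003 CPM in Ex4. The Ex4 mean of Hjurp rested on Ex4 4: its log2 fold change was 0.46 (SE 0.41, adjusted p = 0.856) with all libraries and -0.05 without Ex4 4. Cenpe, the gene of a kinetochore motor, had means of 10.9 ± 4.06 and 10.9 ± 3.97 CPM and a log2 fold change of 0.01 (95% interval -0.70 to 0.71). Without Cenpa, the mean log2 CPM of this group was 2.83 ± 0.29 in PBS and 3.19 ± 0.26 in Ex4, with overlap.

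Among 39 further centromere and kinetochore genes, 0 passed the edgeR test over all genes; at an unadjusted p under 0.05 there were 3 with a higher mean in Ex4 and 0 with a lower one, against 3.71% and 3.9% of all genes tested. Their median log2 fold change was 0.09. Ndc80, which encodes the kinetochore subunit that grips microtubules, was at 11.6, 29.3, 21.7 and 21.2 CPM in PBS 1 to 4 and 41.0, 30.6, 47.8 and 30.9 CPM in Ex4 1 to 4. The groups of Ndc80 did not overlap, PBS 1 was the lowest library as for Cenpa, and the log2 fold change was 0.84 (SE 0.24, adjusted p = 0.429; 0.63 without PBS 1). Cenpi, a gene of the inner kinetochore, was at 4.43 ± 0.719 and 7.82 ± 2.50 CPM (0.82, SE 0.32, adjusted p = 0.556). The third of these genes was Itgb3bp, also an inner kinetochore gene, at 7.48 ± 1.054 and 10.7 ± 0.842 CPM, without overlap (0.51, SE 0.24, adjusted p = 0.651). Mis18a and Oip5, which take part in loading CENP-A together with HJURP, had log2 fold changes of -0.05 (SE 0.17) and -0.23 (SE 0.50), neither past the test. Of the 16 genes of histone variants and their chaperones 0 passed, with a median of 0.00. H3f3b, which encodes the replacement histone H3.3, was at 2363 to 3635 CPM in PBS and 3668 to 4475 CPM in Ex4, again without overlap (log2 fold change 0.34, SE 0.16, adjusted p = 0.651, and 0.22 without PBS 1). H3f3a, which encodes the same protein, had a log2 fold change of 0.12, and Rbbp7, a histone-binding chaperone gene, one of -0.21 (SE 0.16).

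The 14 genes of G2 and mitosis did not separate the groups. None passed the test, 0 had an unadjusted p under 0.05, 9 had a log2 fold change above 0 and 5 below, and the median was 0.10 (from -0.06 without PBS 4 to 0.33 without PBS 2). The sign of that median turned with the libraries used: it was -0.32 among the 4 libraries with label numbers up to 6 and 0.49 among the 4 with higher numbers. Mki67, which encodes the proliferation marker Ki-67, was at 41.4, 49.0, 30.7 and 40.9 CPM in PBS 1 to 4 and 50.2, 31.9, 51.1 and 51.5 CPM in Ex4 1 to 4. In 3 Ex4 libraries it stood just above the highest PBS value, and Ex4 2 was among the lowest of all. Its log2 fold change was 0.19 (SE 0.18, 95% interval -0.20 to 0.58, edgeR adjusted p = 0.872). Top2a, which encodes the topoisomerase that untangles replicated chromosomes, was at 54.5, 66.2, 36.6 and 37.7 CPM and at 65.2, 62.0, 61.4 and 43.1 CPM. PBS 2 held the highest Top2a value of all, and the log2 fold change was 0.25 (SE 0.20, adjusted p = 0.831).

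The mitotic cyclins and their kinase gave differences of both signs. Ccna2, the gene of cyclin A, was at 6.90 ± 0.907 CPM in PBS and 9.26 ± 2.53 CPM in Ex4, where 3 libraries lay at 9.97 to 11.0 CPM and Ex4 4 at 5.52 CPM (log2 fold change 0.43, SE 0.28, adjusted p = 0.782). Ccnb1 was at 14.5, 17.9, 11.5 and 6.30 CPM in PBS and 9.30, 7.94, 15.9 and 7.15 CPM in Ex4, a log2 fold change of -0.32 (SE 0.33), and Ccnb2, the other cyclin B gene, had 0.27 (SE 0.24). The 2 cyclin B genes thus had means that differed in opposite directions, each within the spread of the libraries. Cdk1, the kinase that starts mitosis, was at 7.07, 11.7, 6.30 and 6.58 CPM and at 8.91, 5.49, 8.97 and 10.5 CPM (0.09, SE 0.30, 95% interval -0.55 to 0.73).

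The spindle and checkpoint genes were alike in overlapping between groups. Cdc20, the activator of the complex that ends mitosis, was at 18.2, 27.7, 20.7 and 13.6 CPM in PBS and 22.7, 15.99, 15.97 and 16.3 CPM in Ex4 (log2 fold change -0.18, SE 0.23, adjusted p = 0.913). Birc5, which encodes survivin, a subunit of the chromosomal passenger complex, was at 22.7, 34.4, 25.9 and 24.4 CPM and at 35.4, 24.2, 35.4 and 35.0 CPM. In that gene 3 of 4 Ex4 libraries lay above all PBS libraries, and Ex4 2 lay with the lower PBS libraries (0.27, SE 0.18, adjusted p = 0.782). The kinase genes Aurka (0.21), Aurkb (-0.18) and Plk1 (0.11), the checkpoint genes Bub1 (-0.34) and Bub1b (-0.36) and the spindle assembly gene Tpx2 (0.00) had log2 fold changes with SEs of 0.27 to 0.46. Bub1 was the least precise of the members, with a 95% interval from -1.31 to 0.64, and ran from -0.72 without Ex4 1 to -0.09 without Ex4 2. Without PBS 2 the log2 fold change of Tpx2 was 0.49 and that of Bub1b -0.04, and without PBS 3 that of Aurka was 0.01. Among 52 further genes of the mitotic machinery 0 passed the edgeR test, and the median log2 fold change was 0.03. At an unadjusted p under 0.05 there was 1 (1.92%, against 7.61% of all genes tested). That 1 gene was Cdc27, a subunit of the complex that Cdc20 activates, at 36.0 ± 4.17 and 46.7 ± 6.34 CPM (0.37, SE 0.15, adjusted p = 0.557), and Pttg1, the gene of securin, had a log2 fold change of 0.34 (SE 0.16).

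The 10 replication genes were measured more precisely, with a median SE of 0.17 against 0.28 for the G2 and mitosis genes. All their 95% intervals lay within a 2-fold change. Of the 10 genes 4 had a log2 fold change above 0 and 6 below, and 0 passed or had an unadjusted p under 0.05. Their median was -0.17, farther from 0 than the 0.10 of the G2 and mitosis genes. The helicase subunit genes Mcm2, Mcm3, Mcm5, Mcm6 and Mcm7 had log2 fold changes from -0.24 to -0.15, and Mcm4 one of 0.29. Mcm4 was at 110.0, 209, 144 and 150.1 CPM in PBS 1 to 4 and 196, 168, 226 and 161 CPM in Ex4 1 to 4. PBS 1 was the lowest library of Mcm4 although it was the highest PBS library of Mcm6, Tyms, Rrm2 and Pcna, and without it the log2 fold change of Mcm4 was 0.15 in place of 0.29 (SE 0.18, adjusted p = 0.749). Mcm5 was at 86.7, 99.7, 71.7 and 83.1 CPM and at 68.9, 79.2, 83.2 and 56.4 CPM (-0.24, SE 0.15, adjusted p = 0.751).

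Pcna, which encodes the sliding clamp of DNA polymerase, was the steadiest member in PBS, at 101, 96.1, 96.7 and 95.2 CPM, and stood at 97.6, 107, 118 and 83.1 CPM in Ex4. Its log2 fold change was 0.06 (SE 0.13, 95% interval -0.22 to 0.34). Of the nucleotide supply genes, Tyms, which encodes thymidylate synthase, was at 66.5, 58.9, 45.5 and 44.6 CPM in PBS and 44.9, 41.3, 51.4 and 42.7 CPM in Ex4. The PBS values of Tyms fell into a higher and a lower pair, and only the higher pair lay above the Ex4 range (-0.26, SE 0.16, adjusted p = 0.747). Rrm2, the regulated subunit gene of ribonucleotide reductase, was at 79.2, 63.7, 49.4 and 46.5 CPM and at 57.9, 53.6, 89.6 and 42.8 CPM, a log2 fold change of 0.03 (SE 0.22) that was -0.24 without Ex4 3, and Rrm1, the other subunit gene, had 0.02 (SE 0.20).

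Among 46 further genes of the replication machinery 0 passed the edgeR test, and the median was -0.03. At an unadjusted p under 0.05, 1 had a higher and 2 a lower mean in Ex4 (6.52%, against 7.61% of all genes tested). Cdt1, which loads the helicase onto origins, was at 36.4, 40.1, 31.3 and 26.1 CPM in PBS and 20.9, 25.0, 25.1 and 24.8 CPM in Ex4, without overlap (log2 fold change -0.48, SE 0.17, adjusted p = 0.478). Pold2, a subunit gene of DNA polymerase delta, was at 96.6 ± 15.2 and 74.2 ± 11.2 CPM (-0.38, SE 0.15, adjusted p = 0.557). The gene with the higher mean was Dbf4, the activator of the kinase that fires origins, at 10.4 ± 1.72 and 14.8 ± 1.74 CPM (0.51, SE 0.21, adjusted p = 0.595).

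The 12 genes of G1 control ranged most widely in level. Per kb of exon, Ccnd2 had 393 CPM in PBS, the highest of the set, and E2f2 1.02, against a median of 6.03 CPM per kb over the 40 genes; the group medians on that scale were 21.5 for replication, 5.35 for G1 control, 4.01 for G2 and mitosis and 0.9753 for the centromere genes. The median log2 fold change of the G1 genes was 0.00 (from -0.12 without PBS 4 to 0.16 without PBS 1), 6 were above 0 and 6 below, and 0 passed. Cdk4 was the 1 gene of this group whose 95% interval left out 0.

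Cdk4 was at 183, 169, 161 and 149.7 CPM in PBS 1 to 4 and 134, 134, 139 and 107 CPM in Ex4 1 to 4. Every Ex4 library was below every PBS library, with the lowest value in Ex4 4. The means were 166 ± 13.8 and 128 ± 14.7 CPM, a log2 fold change of -0.37 (SE 0.13, 95% interval -0.64 to -0.09), with an unadjusted p of 0.0122 and an adjusted p of 0.497 (edgeR). It ran from -0.43 (without PBS 4) to -0.30 (without Ex4 4) with 1 library left out. Cdk4 lies on chromosome 10 from 127063535 to 127067288, and 19.7% of its exon bases are also exon bases of Tspan31 on the opposite strand. The kit marks strand, whether the counting used it is not given in the sources used here, and Tspan31 had 207 to 648 counts per library against 1506 to 4069 for Cdk4.

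Cdk6, the partner kinase gene, was at 334, 239, 283 and 336 CPM in PBS and 198, 263, 243 and 274 CPM in Ex4. Its groups overlapped through PBS 2, and the log2 fold change was -0.28 (SE 0.15, adjusted p = 0.686). Ccnd2, by far the most abundant member, was at 3864, 3173, 3553 and 4189.6 CPM and at 2610.1, 3399.9, 3136 and 3105 CPM. Only Ex4 2 lay inside the PBS range of Ccnd2, and the log2 fold change was -0.27 (SE 0.15, 95% interval -0.58 to 0.04, adjusted p = 0.693). Ccnd3 was at 67.6, 46.2, 41.5 and 47.9 CPM and at 54.5, 52.2, 42.2 and 37.1 CPM, with a log2 fold change of -0.13 (SE 0.18) that was 0.03 without PBS 1.

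The inhibitors of these kinases did not pass the test either. Cdkn1b, an inhibitor gene tied to quiescence, was at 16.1, 7.10, 11.0 and 13.1 CPM in PBS and 10.9, 13.6, 16.2 and 29.0 CPM in Ex4. Ex4 4 held the highest value of Cdkn1b, and the log2 fold change was 0.55 (SE 0.31, adjusted p = 0.719), and 0.19 without that library. Cdkn2d, an inhibitor of Cdk4 and Cdk6, was at 75.4, 173, 129 and 129 CPM and at 186, 159, 199 and 137 CPM. PBS 1 was the lowest library, as for Cenpa, and the log2 fold change was 0.43 (SE 0.21, adjusted p = 0.671), and 0.24 without PBS 1. Cdkn1a, the inhibitor gene induced by p53, was at 101, 107, 87.8 and 87.5 CPM and at 110.1, 97.5, 139 and 117 CPM (0.27, SE 0.14, adjusted p = 0.685, and 0.15 without Ex4 3).

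The factors that act downstream at the G1 to S boundary were low. E2f1 was at 10.2, 7.47, 7.15 and 4.50 CPM in PBS and 5.36, 9.74, 7.17 and 6.37 CPM in Ex4, a log2 fold change of -0.03 (SE 0.31). E2f2 was at 5.53, 5.52, 4.71 and 4.16 CPM and at 6.20, 5.49, 6.62 and 7.36 CPM, so that only Ex4 2 reached into the PBS range (0.36, SE 0.29, adjusted p = 0.834). The cyclin E genes Ccne1 (-0.14, SE 0.24) and Ccne2 (0.44, SE 0.31) and the kinase gene Cdk2 (0.03, SE 0.16) overlapped between groups. Of the exon bases of Ccne2 17.4% are shared with Ints8 on the opposite strand, and of those of Ccna2 12.5% with Exosc9, so the counts of both would hold reads of the partner if strand was not used. Both partners had more counts than the member: Ints8 had 727 to 1944 per library against 93 to 385 for Ccne2, and Exosc9 had 833 to 2727 against 78 to 320 for Ccna2.

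Libraries differed within the groups in a way that replication and mitosis genes shared. Of the 27 members of replication, mitosis and the centromere other than Cenpa, 20 were highest among the PBS libraries in PBS 2, and 18 were highest among the Ex4 libraries in Ex4 3. Lowest within their group were PBS 4 for 13 of them and Ex4 4 for 16. Their mean log2 CPM was 4.80, 5.09, 4.52 and 4.38 in PBS 1 to 4 and 4.85, 4.55, 5.02 and 4.52 in Ex4 1 to 4. The spread within a group, 0.32 (SD) in PBS and 0.24 in Ex4, was larger than the difference of the means, 4.70 against 4.73. PBS 2 and Ex4 3 are the libraries with the fewest genes detected, and Ex4 4 is the one with the fewest counts; the part of this in the levels was not tested. Without PBS 2 and Ex4 3, 0 members passed the edgeR test, and the median log2 fold change was 0.24 for G2 and mitosis genes and -0.14 for replication genes.

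**Figure D4:**
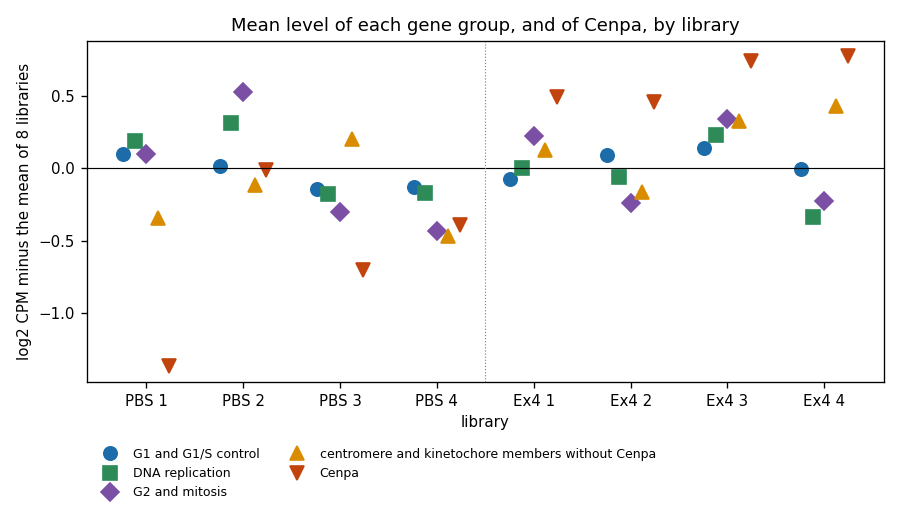
Mean log2 CPM of each gene group, and log2 CPM of Cenpa, in each library, as the difference from its own mean over 8 libraries (vertical axis). Replication and mitosis genes are highest in PBS 2 and Ex4 3 within their groups. Cenpa is also highest among the PBS libraries in PBS 2, and among the Ex4 libraries it is highest in Ex4 4. Cenpa is below its mean in 3 PBS libraries, close to it in PBS 2, and above it in every Ex4 library.

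Markers of other cells that the sort could hold were measured beside these genes. Summed over 21 epithelial genes, levels were 674 to 1540.0 CPM in PBS and 348 to 795 CPM in Ex4. Of the 21, 20 had a log2 fold change below 0, and 0 passed the edgeR test. The median of the 21 was -0.63, against 0.02 for all genes tested. At an unadjusted p under 0.05 (edgeR) there were 4, all with a lower mean in Ex4 (19.0%, against 7.61% of all genes tested). The groups of 2, Epcam and Lgals4, did not overlap, with Ex4 lower (9.52%, against 4.95% of all genes tested). The part of the epithelial difference in the results above was not tested. The 10 genes of intestinal crypts, where epithelial cells divide, summed to 17.9 to 26.2 CPM in PBS and 16.1 to 37.6 CPM in Ex4. Most of that sum was Axin2 and Rnf43 in every library. Lgr5 was at 0.14 to 0.99 CPM in PBS and 0.24 to 2.57 CPM in Ex4, and Olfm4 at 0 to 3.15 and 0.92 to 3.17 CPM. Ascl2, Smoc2, Defa24 and Mmp7 were under 1 CPM in every library. B and plasma cell genes summed to 1574 to 2155 CPM and to 840.4 to 3101 CPM, and myeloid genes to 129 to 228 CPM and 137 to 209 CPM, in PBS and Ex4. Which of the sorted cells the cell cycle transcripts came from was not tested.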

How the data were processed

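Raw integer counts of each gene were deposited by the authors in 8 columns, and sample descriptions tied every column to 1 mouse, leaving 0 columns unused. The submitters' processing notes list STAR 2.7.9a, DESeq2 and mm10 with no roles; which program counted reads, and whether by strand, is not given in the sources used here. Replicates are separate mice, per the labels, and replicate pairs differed by more than sampling noise (mean chi-square per gene 21.9 to 80.7).

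The test was edgeR 4.0.16 under R 4.3.3, a robust quasi-likelihood F test after filterByExpr and TMM, over 14691 genes. The F statistic and fitted fold change gave SEs and 95% intervals. Log2 CPM used a prior count of 2. Alternatives were DESeq2 1.42.0, limma-voom (limma 3.58.1), other scalings and filters, each library left out, a replicate block and a term for the run of label numbers. Coordinates and promoter windows were from RefSeq (GRCm38.p6), exon lengths and overlaps from GENCODE M21; 5 list genes were matched by synonym. The fit was tested on simulated data. The members and the 179 related and 76 marker genes were chosen with earlier results of these data known. Described in full were members past the threshold, those without overlap, the 3 smallest p of each group and 20 fixed genes. The 2 smallest p of each related list were also described, and the other members are given by their fold changes. Mis18a, Oip5, H3f3a, Itgb3bp, Dbf4, Myb and the T cell and IEL markers were named outside this rule, after their values were seen.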

Additional observations from a re-analysis of the deposited data

Results flagged for a closer look

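Extreme libraries were sought by taking, within PBS and within Ex4, how far the top or bottom log2 CPM lay from the next value as a share of the range over 4 libraries, for the 40 genes, the 4 group means and Cenpa relative to the mitotic genes. The ratio passed its 95% limit in 7 of 90 groups, where chance passes about 1 in 20, or 4.5 of them. All 7 lay in Ex4. Low values of log2 CPM stood apart for Mki67 in Ex4 2 (5.00, neighbour 5.65) and Birc5 in Ex4 2 (4.60, neighbour 5.13), and for Cdk4 (6.74, neighbour 7.06), Top2a (5.43, neighbour 5.94) and Ccna2 (2.49, neighbour 3.33) in Ex4 4, the library with the fewest counts. High values stood apart for Cdc20 in Ex4 1 (4.51, neighbour 4.04) and Cenpf in Ex4 3 (3.90, neighbour 3.17).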

How the results depend on the processing

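Over all genes, edgeR called 2, both higher in Ex4. DESeq2 called 75 (43 higher, 32 lower), limma-voom 1 higher, and edgeR without a filter on low counts 8 (5 higher, 3 lower). The term for the run of label numbers (up to 6 against 11 and above) gave 1 higher. With 1 library left out the count ran from 1 to 14, from 1 to 10 higher and from 0 to 4 lower, and the 14 came without PBS 2. Among the 40 genes the count was 0; it was 1, Cenpa as higher, with DESeq2 and without PBS 2, and 0 in the other fits, a threshold of 0.1 included, so that leaving out 1 library gave 0 to 1. With a replicate block 1 gene was called in all, higher in Ex4, and 0 members. Deviations of same-numbered libraries correlated at -0.24 to 0.14 across genes, over 0.1 in 1 of 4 pairs, and 2 of 8 libraries correlated best with their own number, so the numbers were not taken to pair the mice.

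Chosen after seeing the data, fits within each run of label numbers compared 2 libraries with 2. Those up to 6 called 0 genes, none higher, and those above 6 called 1, higher. The median log2 fold change of G1 genes was -0.16 in the first and 0.25 in the second, and that of G2 and mitosis genes -0.32 and 0.49. The cause was not tested. Cenpa had 1.01 and 1.29. Group medians with 1 library left out ran from -0.12 to 0.16 (G1), -0.28 to -0.06 (replication), -0.06 to 0.33 (mitosis) and 0.39 to 0.64 (centromere), and Cenpa relative to the mitotic genes from 0.89 to 1.40. Genes at a few CPM in Ex4 4, the shallowest library, are the least precise.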

Other observations

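Of 26 further G1 regulators, 0 passed the edgeR test over all genes, and their median log2 fold change was 0.00. At an unadjusted p under 0.05, 2 had a higher and 1 a lower mean in Ex4 (11.5%, against 7.61% of all genes tested). Rb1, which encodes the retinoblastoma protein that holds E2F factors in check, was at 24.5, 42.5, 27.8 and 37.2 CPM in PBS 1 to 4 and 61.5, 43.1, 67.4 and 56.2 CPM in Ex4 1 to 4. The groups did not overlap, with PBS 2 and Ex4 2 nearly touching. Its log2 fold change was 0.79 (SE 0.19, edgeR adjusted p = 0.31), and DESeq2 called it (adjusted p = 0.0495). E2f5, a repressive E2F gene, was at 16.6, 14.2, 21.1 and 16.6 CPM and at 13.9, 11.3, 13.4 and 9.13 CPM (-0.52, SE 0.21, edgeR adjusted p = 0.577), also without overlap. The other gene with a higher mean was Myb, a transcription factor of dividing blood cells, at 3.505 ± 1.57 and 6.59 ± 2.37 CPM with overlap (0.91, SE 0.41, edgeR adjusted p = 0.636).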
